A study of Danio rerio with 8 samples.

Results

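A set of 123 zebrafish genes read higher in oxygen-deprived gastrulae while their level in normal oxygen stayed alike between the gastrula and the 8-somite embryo. The members were chosen by measured log2 values. The lower of both hypoxic gastrula arrays had to exceed the higher of both normoxic gastrula arrays by at least 0.5, and the normoxic means of both stages had to lie within 0.7 of each other. Only rows with RefSeq mRNA identifiers (NM_) were eligible, which are 3055 of the 37157 rows of the array table. Of the eligible rows 132 met both conditions, and 9 were left out by name as the rule asks, among them bnip3 and vhl. Of the 123 members 104 matched a gene symbol, and the other 19 are called here by their RefSeq identifier. Rows without a symbol could not be checked against the names left out. Row values are taken as log2, which was inferred from their range.

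Each sample pooled 12 to 15 whole wildtype embryos, freed of the chorion and picked by hand for matching development. The groups were hypoxic gastrulae (2 arrays) and normoxic gastrulae (2 arrays), both at shield (6 h), and hypoxic 8-somite embryos (1 array with values) and normoxic 8-somite embryos (2 arrays), both at 12 h. Hypoxia meant 1 to 2 h in embryo water brought below 1% oxygen by flushing with nitrogen, and the labels name no treatment for the normoxic embryos. Both gastrula groups had replicate 1 labelled with Cy3 and replicate 2 with Cy5, while at the segmentation stage replicate 1 carried Cy5 and normoxic replicate 2 carried Cy3. Whole embryos hold every tissue of their stage, so more RNA per cell and more cells of a type cannot be told apart.

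Low oxygen is sensed in animal cells chiefly through the hypoxia-inducible factors (HIF), transcription factors whose alpha subunits are hydroxylated and destroyed while oxygen is present. When oxygen falls the subunits persist, pair with ARNT and switch on genes for glycolysis, oxygen delivery and mitophagy. Zebrafish embryos are known to survive severe oxygen loss by slowing or halting development, and the shield stage is when the organizer forms and the germ layers are being laid down.

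Array medians over all rows lay between 8.51 and 8.74. The interquartile range was 2.31 and 2.18 on the hypoxic gastrula arrays, against 2.75 and 2.86 on the normoxic ones, a narrower spread of values on the hypoxic arrays. At segmentation it was 2.51 on the hypoxic array, against 2.78 and 3.02 on the normoxic ones, so the hypoxic array was narrower there too. The part of this spread in the results of either stage was not tested. The stage labels were checked with marker lists: in normoxia all 6 measured somite and muscle genes read higher at the segmentation stage (median 1.27) and all 4 maternal and early zygotic regulators read lower (median -1.22). In hypoxic gastrulae 4 of the 6 somite and muscle genes and 0 of the 4 early regulators read higher than in normoxic gastrulae, and no gene of either list is a member. The early regulators' mean log2 value was 11.8 and 11.5 on the hypoxic gastrula arrays, against 12.4 and 12.8 on the normoxic ones. The somite and muscle mean was 10.3 and 9.92 on the hypoxic gastrula arrays, against 10.2 and 9.83 on the normoxic ones. Of the other 8 cell type lists, 5 had a mean value that lay higher on both hypoxic gastrula arrays than on both normoxic ones. These were blood and endothelium (8.36 and 8.41 in hypoxia, 8.03 and 7.99 in normoxia, 5 of 5 genes higher), neural (10.02 and 10.47 in hypoxia, 9.85 and 9.33 in normoxia, 2 of 2) and notochord (9.26 and 9.67 in hypoxia, 9.23 and 8.90 in normoxia, 1 of 2). The other two were epidermis and enveloping layer (12.7 and 12.4 in hypoxia, 12.1 and 11.99 in normoxia, 2 of 3) and yolk syncytial layer and liver-type genes (10.7 and 10.6 in hypoxia, 10.3 and 9.93 in normoxia, 2 of 3). The 1 neural crest gene read lower on both hypoxic arrays, and the organizer and germ cell lists overlapped between the groups. Each of these 8 lists had only 1 to 5 measured genes. The same count was not made for other sets of genes, so nothing is read from the number of lists that lay higher. The part of stage and cell type make-up in the results was not tested.

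In the gastrula the members' median was 9.22 and 9.43 on the hypoxic arrays, against 8.42 and 8.08 on the normoxic arrays. The mean difference between hypoxic and normoxic gastrulae had a median of 1.02 on the log2 scale and ran from 0.58 to 2.82. These values chose the members and are given without a test. Both hypoxic arrays lay above both normoxic arrays by at least 0.5 in 4.81% of NM_ rows (147 rows) and in 6.99% of all rows. The gap between the groups, the lowest hypoxic minus the highest normoxic value, had a median of 0.65 among the members and reached 1 or more in 23 of them. The median spread within a group was a standard deviation (SD) of 0.17 in hypoxic and 0.18 in normoxic gastrulae (n = 2 each).

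The replicates of the members were not interchangeable. Normoxic gastrula replicate 1 read above replicate 2 in 110 of 123 members, with a median difference of 0.23, while it did so in 46.4% of all rows. Normoxic segmentation replicate 1 likewise read above replicate 2 in 103 members, by a median of 0.32, against 43.3% of all rows. In hypoxic gastrulae replicate 2 read above replicate 1 in 98 members, by a median of 0.21, against 44.9% of all rows. On the normoxic side, therefore, replicate 1 was in most members the array nearer to the hypoxic values at both stages. The part of this order in the results was not tested.

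**Figure D1:**
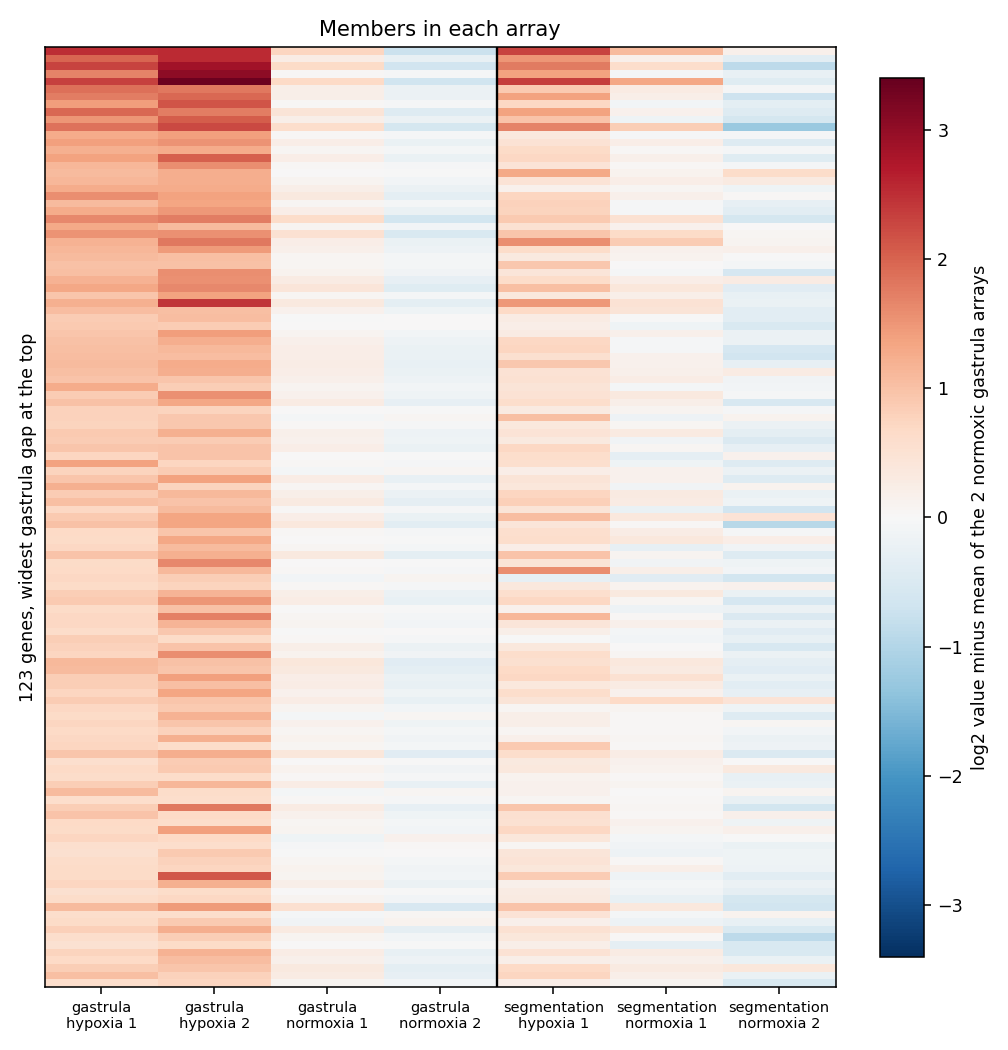
Heat map of the 123 members (rows, widest gastrula gap at the top) in the 7 arrays (columns). Colour is the log2 value minus the mean of the 2 normoxic gastrula arrays of that gene; both hypoxic gastrula columns are red throughout, the hypoxic segmentation column is red in most rows, and the normoxic columns are pale, with replicate 1 redder than replicate 2.

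The widest gap belonged to ttll11 (NM_001077375), a tubulin tyrosine ligase-like gene whose enzyme adds glutamate chains to tubulin. It read 11.27 and 11.29 in hypoxic gastrulae, against 9.50 and 8.02 in normoxic gastrulae, and 11.06 in the hypoxic segmentation array, against 9.84 and 8.93 in the normoxic ones. At both stages its hypoxic values stood close together and apart from every normoxic value, while its normoxic gastrula replicates were farther apart than those of any other member. The zinc finger gene znf385b (NM_212793) read 10.57 and 10.77 in hypoxic gastrulae, against 9.01 and 8.63 in normoxic gastrulae, and 10.19 in the hypoxic segmentation array, against 9.02 and 8.11 in the normoxic ones. The heparan sulfate sulfotransferase gene hs3st1 (NM_001080593), which makes a rare modification on cell-surface sugar chains, read 10.06 and 10.61 in hypoxic gastrulae, against 8.76 and 8.37 in normoxic gastrulae, and 9.55 in the hypoxic segmentation array, against 8.42 and 7.96 in the normoxic ones. In both of these genes the hypoxic segmentation value lay between the normoxic values and the hypoxic gastrula values.

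Transcript levels of lhb (NM_205622), the beta subunit of luteinizing hormone known from the pituitary, read 11.52 and 11.92 in hypoxic gastrulae, against 10.27 and 9.09 in normoxic gastrulae. At the segmentation stage lhb read 11.38 in the hypoxic segmentation array, against 10.51 and 8.42 in the normoxic ones. Its normoxic segmentation replicates were farther apart than those of any other member, and all hypoxic arrays still lay above them. The glucuronosyltransferase gene ugt5a2 (NM_001076723), of an enzyme family that conjugates small molecules for excretion, read 9.08 and 9.19 in hypoxic gastrulae, against 7.85 and 7.77 in normoxic gastrulae, and 8.17 in the hypoxic segmentation array, against 7.78 and 7.76 in the normoxic ones. The uncharacterised zgc:110045 (NM_001039984) read 9.92 and 9.86 in hypoxic gastrulae, against 8.27 and 7.85 in normoxic gastrulae, and 8.95 in the hypoxic segmentation array, against 8.35 and 7.998 in the normoxic ones. In both, the hypoxic segmentation value was closer to the normoxic values than to the hypoxic gastrula values.

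The other 6 of the 12 widest gaps belonged to rows without a symbol. Row NM_001080160 read 10.32 and 10.87 in hypoxic gastrulae, against 8.61 and 8.08 in normoxic gastrulae, and 9.84 in the hypoxic segmentation array, against 8.51 and 7.98 in the normoxic ones. Row NM_001003472 read 13.84 and 14.39 in hypoxic gastrulae, against 12.19 and 10.89 in normoxic gastrulae, and 13.31 in the hypoxic segmentation array, against 12.15 and 10.64 in the normoxic ones. Row NM_205623 read 9.74 and 11.09 in hypoxic gastrulae, against 8.09 and 8.02 in normoxic gastrulae, and 9.42 in the hypoxic segmentation array, against 7.99 and 7.82 in the normoxic ones. In all 3 rows each hypoxic array lay above each normoxic array of either stage. Row NM_001080800 read 11.15 and 12.16 in hypoxic gastrulae, against 9.51 and 8.16 in normoxic gastrulae, and 11.19 in the hypoxic segmentation array, against 10.14 and 8.43 in the normoxic ones. Row NM_201126 read 10.53 and 11.25 in hypoxic gastrulae, against 9.15 and 9.07 in normoxic gastrulae, and 9.82 in the hypoxic segmentation array, against 9.03 and 8.79 in the normoxic ones. Row NM_001004514 read 10.50 and 10.29 in hypoxic gastrulae, against 8.97 and 8.11 in normoxic gastrulae, and 9.91 in the hypoxic segmentation array, against 8.67 and 8.11 in the normoxic ones. The same order held in these 3 rows, with NM_001080800 showing the largest mean gastrula difference of all members (2.82). For the gastrula arrays the rule set this order. The hypoxic segmentation array lay above all 4 normoxic arrays in 115 of 123 members and in 21.95% of all rows.

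**Figure D2:**
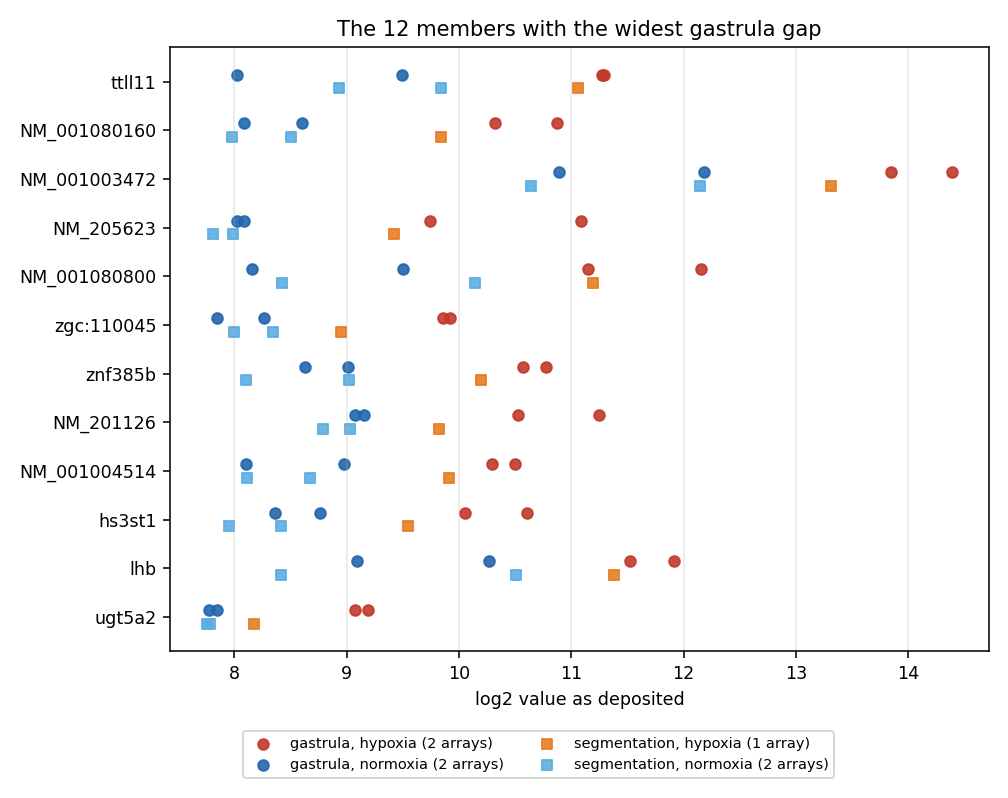
Deposited log2 values (horizontal axis) of the 12 members with the widest gastrula gap, each point being 1 array. Circles are gastrulae and squares are 8-somite embryos; in each gene the hypoxic points lie to the right of the normoxic points of the same stage, most narrowly for ugt5a2 at the segmentation stage (8.17 against 7.78 and 7.76).

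Gaps ran on without a break across the limit of the rule. The members nearest above the limit were cryba1l1 (gap 0.5014), trh (0.5051), arhgap28 (0.5058) and leg1.2 (0.506). The rows nearest below it were col19a1 (0.4976), rbms3 (0.4975), prelid1b (0.4958) and a row without a symbol, NM_001024446 (0.495). Mean deposited values in normoxic gastrulae ran from 7.475 for myoz2b, with cldn10b, leg1.2 and pcyt1ba next, to 11.5 for NM_001003472, with NM_001013302, mib1 and gabpb1 next. Brightness differs between probes, so these values do not rank transcripts by abundance.

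The hypoxic segmentation array took no part in the choice of members and gives the one comparison that can be tested. It read above both normoxic segmentation arrays in 121 of 123 members, where 33.7% of all rows did so. By a margin of 0.5 or more it did so in 46 members, where 5.26% of all rows did. The dye-adjusted difference was above 0 in 122 of 123 members, against 48.3% of all rows. Its median was 0.52 among members (middle 50% from 0.32 to 0.82, range from -0.10 to 1.79) and -0.01 over all rows. In most members normoxic replicate 1 read higher at both stages, though it carried Cy3 in gastrulae and Cy5 at segmentation. A single dye term cannot take up such an order at both stages. Against normoxic segmentation replicate 1 alone the members' median difference was 0.39. The normoxic segmentation arrays did enter the rule through the stage window. The gastrula arrays, which chose the members, also enter the dye adjustment, while the counts of 121 and 46 members rest on the segmentation arrays alone. Members share arrays, so these counts describe 1 hypoxic sample and are not 123 separate trials.

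No single member passed the test. In limma's linear model with dye as a covariate and Benjamini-Hochberg adjustment, 0 of 37157 rows (0.0%) had an adjusted p under 0.05, 2634 had an unadjusted p under 0.05, and the members' adjusted p ran from 0.609 to 1.00. At an unadjusted p under 0.05, 19 members read higher and 0 lower, where 2.47% of all rows (916 rows) read higher at that level. That count was 9 with replicate number as a block or without segmentation normoxia replicate 2, 31 without either normoxic gastrula array, and 33 without the dye term. With 1 hypoxic segmentation array, the model borrows the spread of the other groups for it, among them the gastrula groups whose values chose the members.

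Against the normoxic array of the same dye and replicate number, which was the higher control in 103 members, the hypoxic segmentation array read higher in 121 of 123 members, with a median difference of 0.39. It lay above all 4 normoxic arrays of both stages in 115 members, against 21.95% of all rows. In 103 members it stood above every normoxic array and below both hypoxic gastrula arrays, against 10.7% of all rows. The segmentation difference was the smaller one in 118 members and the larger one in 5. Over all 37157 rows it was the larger one in 17330. Since the members were chosen for high hypoxic gastrula values and a large gastrula difference, neither the count of 103 nor that of 118 members compares the stages. The rule also asked for normoxic gastrula values below the hypoxic ones, so the counts of 115 and 103 members follow in part from the choice.

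**Figure D3:**
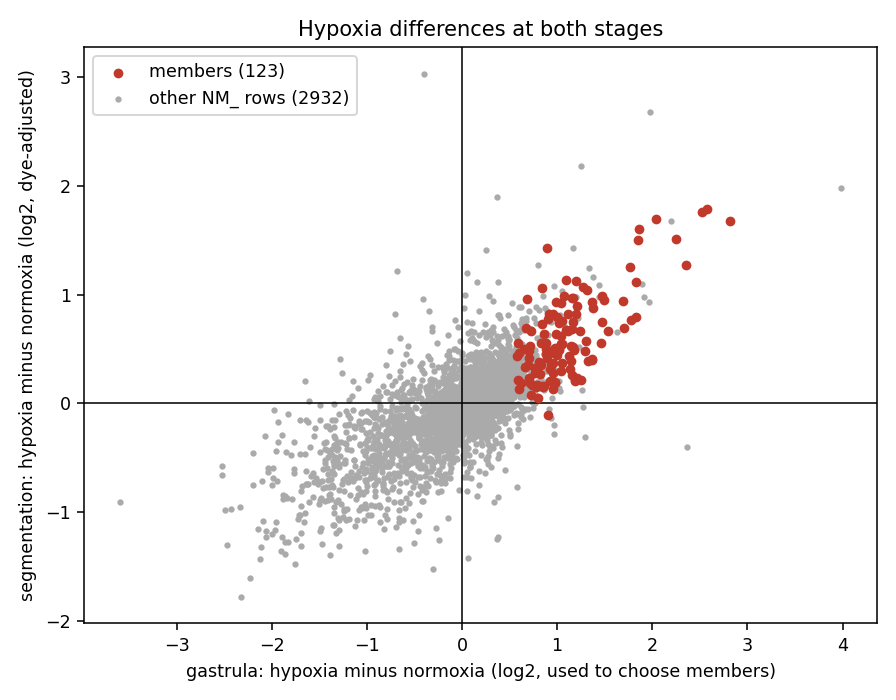
Hypoxia minus normoxia at the gastrula stage (horizontal axis, log2) against the same at the segmentation stage (vertical axis, log2, dye-adjusted) for 123 members and 2932 other NM_ rows, 1 point a row. The members' place on the horizontal axis was fixed by the rule; on the vertical axis 122 of them lie above 0.

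Hypoxia differences moved with signal level over the whole table. With all rows in 10 equal bins by their normoxic gastrula mean, 109 members lay in bins 2 to 6. There the median gastrula difference of all rows lay between 0.05 and 0.20, and the median segmentation difference between 0.01 and 0.07. The share of rows with a segmentation difference above 0 ran from 51.2% to 63.2% in these bins, against 48.3% over the whole table. The members' own median segmentation differences in these bins lay between 0.37 and 0.66, and 121 of 123 members exceeded the median of their bin. In bins 7 to 10, which hold 11 members, the median gastrula difference of all rows lay between -0.65 and -0.26.

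Scaling changed which genes met the limit, while most segmentation differences kept their sign. After quantile normalization of the arrays together, all 123 members kept both hypoxic gastrula arrays above both normoxic ones, 92 still met the rule, and 120 had a segmentation difference above 0. After centring each array on its median, 70 met the rule and 121 had a segmentation difference above 0. All 123 again kept the gastrula order, which was fixed in advance. Array medians (8.51 to 8.74) lay closer together than the gap of 0.5 that the rule asked. The median gastrula difference of all rows was -0.16 after median centring and 0.01 as deposited, and the members' median was 0.84 after it. The hypoxic segmentation array read above both normoxic ones in 116 members after either step, against 33.2% of all rows after quantile normalization and 26.2% after median centring.

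**Figure D4:**
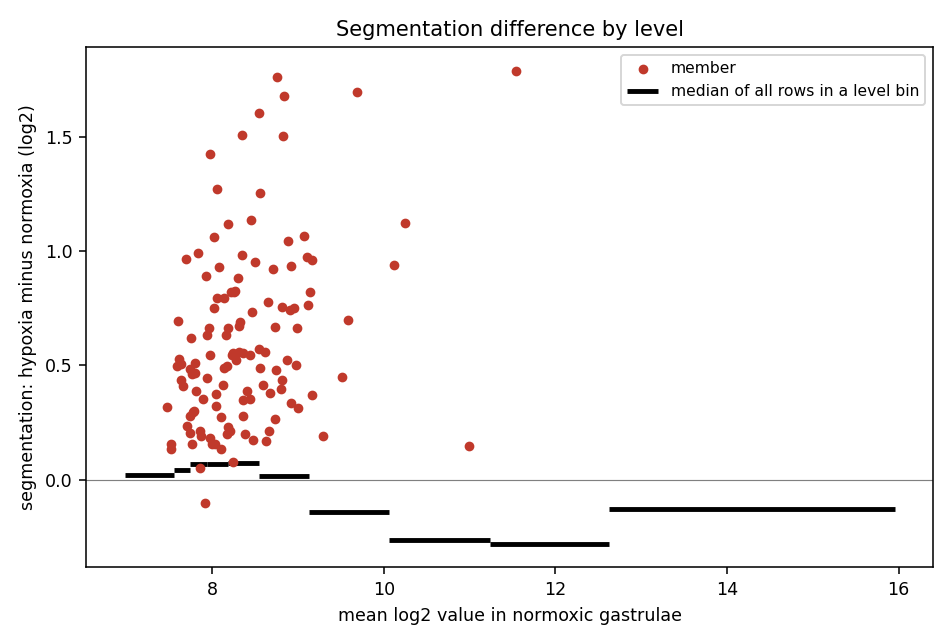
Dye-adjusted segmentation difference (vertical axis, log2) of each member against its mean log2 value in normoxic gastrulae (horizontal axis). Black lines are the median segmentation difference of all rows in each of 10 level bins; all but 2 of the 123 members lie above the line of their bin.

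The members were sorted into roles by their names, after the values were known, and the role groups carry no test. Roles were not counted among the other NM_ rows, so nothing is read from the size of a group here or below. Transcription factors were the largest group with a described role, with 23 genes, and 4 more act as transcription cofactors. In all 23 the hypoxic segmentation array read above both normoxic arrays, with a median difference of 0.55. That order held in 121 of all 123 members and in 33.7% of all rows, so it sets no role group apart from the other members. Among the 23 transcription factors were 6 homeobox genes. The Iroquois gene irx3b (NM_213100), which patterns the neural plate, read 10.18 and 10.34 in hypoxic gastrulae, against 9.12 and 9.09 in normoxic gastrulae, and 10.38 in the hypoxic segmentation array, against 9.22 and 9.72 in the normoxic ones. It was 1 of 4 members in which the hypoxic segmentation value exceeded both hypoxic gastrula values. The difference at segmentation was 0.97 ± 0.30 (standard error (SE), limma adjusted p = 0.643).

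The related genes vax1 and vax2, homeobox genes of the ventral forebrain and eye, were both members. For vax1 (NM_194410) the arrays read 9.68 and 10.31 in hypoxic gastrulae, against 8.72 and 8.29 in normoxic gastrulae, and 10.08 in the hypoxic segmentation array, against 9.36 and 8.59 in the normoxic ones. For vax2 (NM_194409) they read 8.68 and 8.96 in hypoxic gastrulae, against 8.03 and 8.06 in normoxic gastrulae, and 8.25 in the hypoxic segmentation array, against 7.99 and 7.65 in the normoxic ones. The groups did not overlap in either gene, which the rule asked of the gastrula arrays, and vax1 had the wider gap. The other homeobox members were pou2f3, of chemosensory tuft cells in mammals (gastrula difference 1.31), drgx, of dorsal root ganglia (1.12), and pbx1b, a DNA-binding partner of Hox proteins (0.96).

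Other developmental regulators included osr2 (NM_001017694), an odd-skipped zinc finger gene, which read 10.17 and 10.38 in hypoxic gastrulae, against 9.15 and 8.68 in normoxic gastrulae, and 9.66 in the hypoxic segmentation array, against 8.87 and 8.56 in the normoxic ones. The subunit gene gabpb1 (NM_001077450), part of a factor that activates nuclear genes for mitochondria, read 11.75 and 11.86 in hypoxic gastrulae, against 10.74 and 9.49 in normoxic gastrulae, and 11.01 in the hypoxic segmentation array, against 10.63 and 9.51 in the normoxic ones. Its normoxic replicates differed by more than 1 at both stages, and the hypoxic segmentation array exceeded the nearer of them by 0.38. Gastrula differences were 1.47 for dachd, of the Dachshund family, 1.17 for mtf1, the factor that senses metal ions, and 1.15 for creb3l2, a factor released from the endoplasmic reticulum membrane. Differences for foxj1a, which switches on the motile cilium programme, and foxd7, another forkhead gene, were 0.70 and 1.04. All of these also read higher on the hypoxic segmentation array than on both normoxic ones. Gastrula differences were 0.77 for fev, of serotonergic neurons, 1.05 for the hairy-related repressor hes2.2, and 0.81 for nr0b1, an orphan nuclear receptor that represses steroid-cell genes. In none of the 23 did the hypoxic and normoxic segmentation values overlap, and in 121 of all 123 members the hypoxic array lay above both normoxic ones. The HMG-box genes tox2 and hbp1 differed by 0.997 and 0.90, and the bZIP gene cebp1 by 0.65. The zinc finger genes znf438, znf362b and znf1187 differed by 1.36, 0.98 and 0.77.

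The 4 cofactors act in Hippo, Wnt and neural crest pathways. The Hippo pathway coactivator wwtr1 (NM_001037696), also called TAZ, read 10.07 and 10.12 in hypoxic gastrulae, against 9.37 and 8.92 in normoxic gastrulae, and 9.86 in the hypoxic segmentation array, against 9.22 and 8.87 in the normoxic ones. Its antagonist at TEAD factors, vgll4b (NM_213275), read 10.15 and 10.53 in hypoxic gastrulae, against 9.63 and 8.53 in normoxic gastrulae, and 10.03 in the hypoxic segmentation array, against 9.42 and 8.42 in the normoxic ones. Both lay higher in hypoxic gastrulae, as the rule asked of every member, vgll4b with the more spread normoxic values. Gastrula differences were 0.88 for bcl9, a partner of beta-catenin in Wnt signalling, and 1.53 for kctd15b, a relative of the neural crest inhibitor Kctd15.

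Genes sorted as hormones or secreted signals numbered 10, and some are known from differentiated tissues. Guidance genes were counted in this group whether their proteins are secreted or membrane-bound. The neuropeptide gene hcrt (NM_001077392), which encodes hypocretin of the hypothalamus, read 9.18 and 9.22 in hypoxic gastrulae, against 8.02 and 7.90 in normoxic gastrulae, and 8.60 in the hypoxic segmentation array, against 7.99 and 7.88 in the normoxic ones. All 4 normoxic values lay in a narrow range, and the segmentation difference was 0.66 ± 0.24 (SE; limma adjusted p = 0.682). The cytokine gene il22 (NM_001020792) read 8.80 and 9.25 in hypoxic gastrulae, against 7.71 and 7.62 in normoxic gastrulae, and 8.13 in the hypoxic segmentation array, against 7.69 and 7.60 in the normoxic ones. The thyrotropin-releasing hormone gene trh (NM_001012365) read 9.25 and 9.01 in hypoxic gastrulae, against 8.50 and 7.93 in normoxic gastrulae, and 8.96 in the hypoxic segmentation array, against 8.42 and 7.99 in the normoxic ones. In il22 the hypoxic segmentation value was nearer to the normoxic values, in hcrt it stood about midway, and in trh it stood close to the hypoxic gastrula values. Normoxic values of all 3 genes lay below the median of all rows on the same array (8.51 to 8.58). The median of all members also lay below it on every normoxic array. It was 8.42 and 8.08 in gastrulae (all rows 8.58 and 8.51) and 8.36 and 7.997 at segmentation (all rows 8.58 and 8.54). Whether these 3 genes or other members stood above background was not tested.

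In ism2b, which encodes a secreted isthmin, the gastrula difference was 1.17 and the segmentation difference 0.97 ± 0.36 (SE; limma adjusted p = 0.694). It was 1.46 in gastrulae for fgfbp2b, which encodes a carrier of fibroblast growth factors, 0.98 for the clotting factor gene f10 and 0.71 for the ligand gene wnt9a. The guidance genes sema6a and sema3ga stood out by their segmentation values. For sema6a (NM_199992) the arrays read 8.56 and 8.75 in hypoxic gastrulae, against 7.96 and 7.75 in normoxic gastrulae, but 7.92 in the hypoxic segmentation array, against 7.96 and 7.72 in the normoxic ones, where the hypoxic value lay between the normoxic ones. For sema3ga (NM_001014823) they read 8.91 and 9.01 in hypoxic gastrulae, against 8.32 and 8.16 in normoxic gastrulae, but 8.31 in the hypoxic segmentation array, against 8.28 and 8.16 in the normoxic ones. Their dye-adjusted segmentation differences, 0.05 ± 0.27 and 0.08 ± 0.24 (SE), were -0.014 and -0.0086 after the arrays were quantile normalized together.

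Signalling proteins inside the cell gave 14 members. In all 14 (median difference 0.67), as in 121 of all 123 members, the hypoxic segmentation array exceeded both normoxic arrays. The Notch pathway ubiquitin ligase gene mib1 (NM_173286), without which Notch ligands are not taken up, read 10.94 and 11.95 in hypoxic gastrulae, against 10.32 and 10.18 in normoxic gastrulae, and 11.38 in the hypoxic segmentation array, against 10.29 and 9.75 in the normoxic ones. Its segmentation difference was 1.12 ± 0.41 (SE; limma adjusted p = 0.684). The focal adhesion kinase gene ptk2aa (NM_198819) read 9.36 and 9.73 in hypoxic gastrulae, against 8.70 and 8.59 in normoxic gastrulae, and 9.10 in the hypoxic segmentation array, against 8.41 and 7.99 in the normoxic ones. In nkd2b (NM_001097586), a Naked cuticle gene that dampens Wnt signalling, the arrays read 9.40 and 10.62 in hypoxic gastrulae, against 8.53 and 7.84 in normoxic gastrulae, and 9.65 in the hypoxic segmentation array, against 8.68 and 7.96 in the normoxic ones. Here the hypoxic gastrula replicates were themselves more than 1 apart. Gastrula differences were 1.19 for pmepa1, a brake on TGF-beta signalling, 0.67 for ric8a, a folding helper of G protein alpha subunits, and 1.31 for blnk, an adaptor of B cell receptors.

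Phosphatases and their regulators formed a group of their own within this class. The tyrosine phosphatase gene ptpn13 differed by 1.04 in gastrulae and by 0.92 ± 0.36 (SE) at segmentation. Gastrula differences were 0.86 for ppp2r2bb, a regulatory subunit of protein phosphatase PP2A, 0.73 for the metal-dependent phosphatase gene ppm1e, 1.13 for the PP1 inhibitor gene ppp1r14d and 0.71 for the PP1 regulator gene ppp1r26. The small GTPase gene rab39ba and the GTPase activators arhgap28 and acap3b differed by 0.82, 0.88 and 0.96.

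Receptors, channels and other surface proteins numbered 16. In all 16 (median difference 0.54), as in 121 of all 123 members, the hypoxic segmentation array lay above both normoxic arrays. Chemosensory receptor genes were represented from 3 families. The bitter taste receptor gene tas2r200.1 (NM_001039830) read 9.07 and 9.08 in hypoxic gastrulae, against 8.14 and 8.02 in normoxic gastrulae, and 8.98 in the hypoxic segmentation array, against 8.10 and 8.01 in the normoxic ones. Values in its groups were tight and the hypoxic values alike at both stages, with a segmentation difference of 0.93 ± 0.23 (SE; limma adjusted p = 0.616). The olfactory receptor gene ora2 (NM_001098395) read 9.87 and 9.87 in hypoxic gastrulae, against 9.05 and 8.58 in normoxic gastrulae, and 9.37 in the hypoxic segmentation array, against 8.96 and 8.16 in the normoxic ones. The odorant receptor gene or95a1 (NM_001082937) read 8.998 and 8.59 in hypoxic gastrulae, against 7.83 and 7.67 in normoxic gastrulae, and 8.19 in the hypoxic segmentation array, against 7.67 and 7.65 in the normoxic ones. Both showed the same order of groups. Such receptor genes have many relatives, and cross-reaction of probes between copies was not tested.

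Genes of synapses and excitable cells were the next cluster by name. The calcium channel subunit genes cacnb2a and cacnb4b differed by 0.78 and 0.71 in gastrulae, the AMPA receptor gene gria1b by 0.62 and its auxiliary gene cnih2 by 0.83. The muscarinic receptor gene chrm5a differed by 1.15, the limbic adhesion gene lsamp by 1.09 and nyx, which encodes the retinal protein nyctalopin, by 1.12. At segmentation lsamp and nyx differed by 1.13 ± 0.43 and 0.82 ± 0.29 (SE), and cacnb2a and gria1b by 0.17 and 0.18. Gastrula differences were 1.04 for tnfrsf21, a death-domain receptor, 1.09 for the efflux pump gene abcg2a, 1.19 for the immunoglobulin-domain gene tmigd1 and 0.97 for gpr39. For the junction genes gja5a and cldn10b they were 0.84 and 0.60, and cldn10b had a segmentation difference of 0.13 ± 0.25 (SE), among the 6 lowest of all members.

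Among 12 genes of metabolism, tfb1m had the smallest unadjusted p of all members at the segmentation stage. This gene (NM_001076769) encodes a methyltransferase of mitochondrial ribosomal RNA. It read 8.66 and 9.09 in hypoxic gastrulae, against 8.02 and 7.93 in normoxic gastrulae, and 9.56 in the hypoxic segmentation array, against 8.18 and 7.88 in the normoxic ones. Its hypoxic segmentation value was above every other array, and the segmentation difference was 1.43 ± 0.28 (SE; limma adjusted p = 0.609). The purine nucleoside phosphorylase gene pnp5b (NM_001004628) read 9.01 and 9.27 in hypoxic gastrulae, against 7.99 and 7.87 in normoxic gastrulae, and 8.72 in the hypoxic segmentation array, against 7.89 and 7.64 in the normoxic ones. A second gene of purine handling, the GMP reductase gene gmpr, differed by 0.98 in gastrulae and 0.51 at segmentation.

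The gene insig2 (NM_212804), which holds back sterol synthesis and is a known HIF target in mammals, read 9.99 and 9.85 in hypoxic gastrulae, against 9.24 and 8.56 in normoxic gastrulae, and 9.59 in the hypoxic segmentation array, against 9.21 and 8.52 in the normoxic ones. It was the 1 member among 7 measured genes of the 65 on the HIF pathway list. All 7 read higher in hypoxic gastrulae (median 0.88, against 0.01 over all rows). At segmentation 5 of the 7 did so (median 0.65), against 48.3% of all rows. Of these 7, 3 met the gastrula gap, against 4.81% of NM_ rows, and bnip3 and vhl were left out of the set by name. These counts therefore describe the list and not the set.

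The neighbouring genes ugt5a1 and ugt5a2 were both members. For ugt5a1 (NM_001037420) the arrays read 9.06 and 8.63 in hypoxic gastrulae, against 7.92 and 8.07 in normoxic gastrulae, and 8.14 in the hypoxic segmentation array, against 8.003 and 8.08 in the normoxic ones. The gap was narrower than that of ugt5a2, and cross-reaction between these close relatives was not tested. Gastrula differences of the remaining enzymes were 1.29 for the fucosyltransferase gene fut10, 1.16 for nat14, of an acetyltransferase family, 1.02 for pcyt1ba, of phosphatidylcholine synthesis, and 0.59 for the phospholipase gene abhd3.

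Tubulin and cytoskeleton genes numbered 6 and muscle genes 5. Besides ttll11, agtpbp1 (NM_001024445), whose enzyme trims glutamate chains from tubulin, read 8.87 and 8.94 in hypoxic gastrulae, against 8.05 and 7.62 in normoxic gastrulae, and 8.55 in the hypoxic segmentation array, against 7.80 and 7.26 in the normoxic ones. Both of these genes read higher in hypoxic gastrulae because the rule asked it of every member. Other genes that write or trim this tubulin mark were not looked at. Gastrula differences were 1.21 for the cilium gene cfap58, 0.83 for the dynamin gene dnm2b, 0.80 for the actin regulator gene wipf2b and 0.96 for septin5b, whose segmentation difference was 0.13 ± 0.32 (SE). In all 6 (median difference 0.37), as in 121 of all 123 members, the hypoxic segmentation array exceeded both normoxic ones. Muscle genes differed in gastrulae by 1.14 for stac3, of excitation-contraction coupling, 0.96 for the caveola gene cavin4a, 1.02 for the Z-disc gene pdlim3b, 0.94 for the heart gene adprhl1 and 0.92 for myoz2b. Segmentation differences of the 5 muscle genes lay between 0.32 and 0.49, each with the hypoxic array above both normoxic ones.

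**Figure D5:**
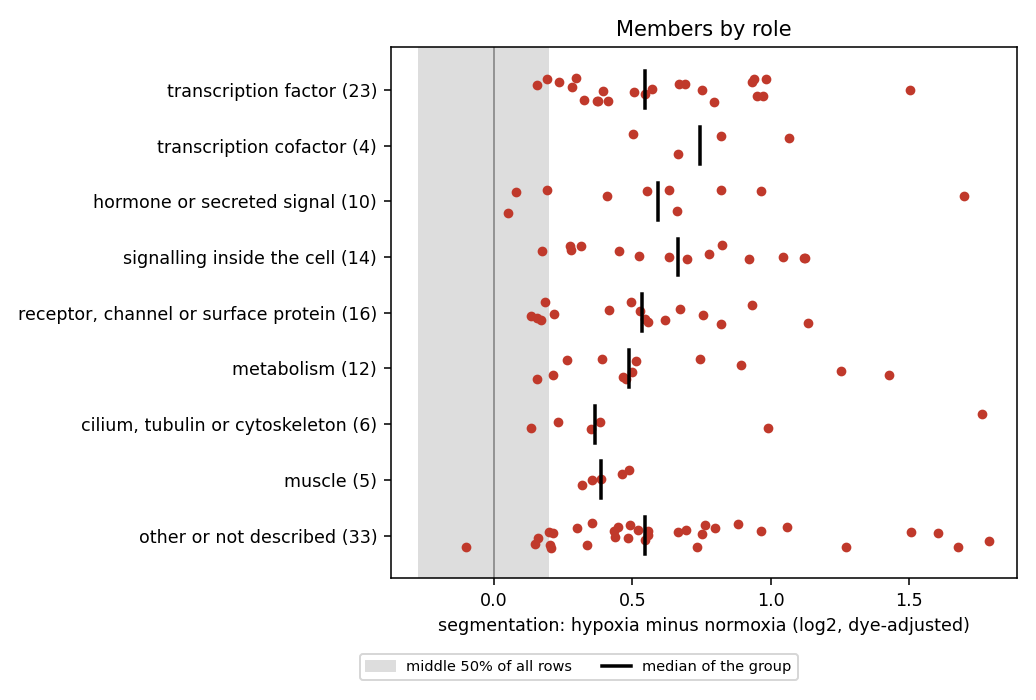
Dye-adjusted segmentation difference (horizontal axis, log2) of the 123 members by role, 1 point a gene, with the number of genes in brackets. Black ticks are group medians, from 0.37 to 0.74, and the grey band is the middle 50% of all 37157 rows (-0.27 to 0.19); 1 member lies below 0.

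The remaining members with a symbol were 8 zgc genes of uncharacterised products and 6 others. Of the zgc genes, zgc:112416 had the second widest gap after zgc:110045 (gastrula difference 1.71). The others were zgc:109965 (1.04), zgc:113263 (0.84), zgc:162255 (0.88), zgc:153184 (1.12), zgc:162952 (0.69) and zgc:165507 (0.72). The small heat shock gene hspb9l differed by 1.18 in gastrulae and 0.20 ± 0.31 (SE) at segmentation. Gastrula differences were 1.47 for the protease inhibitor gene serpinb1l4, 0.98 for stpg2, 0.58 for lrp2bp, 0.86 for leg1.2 and 0.66 for the lens crystallin gene cryba1l1.

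Among rows without a symbol, NM_001014297 read 8.80 and 8.93 in hypoxic gastrulae, against 7.96 and 8.07 in normoxic gastrulae, and 9.05 in the hypoxic segmentation array, against 7.85 and 8.15 in the normoxic ones. Row NM_001013493 read 9.89 and 9.80 in hypoxic gastrulae, against 9.22 and 9.10 in normoxic gastrulae, and 10.06 in the hypoxic segmentation array, against 9.20 and 9.002 in the normoxic ones. In both, as in tfb1m, the hypoxic segmentation array was above the hypoxic gastrula arrays, and their segmentation differences were 1.06 ± 0.26 and 0.96 ± 0.25 (SE; limma adjusted p = 0.614 and 0.618). Row NM_001013302 had a segmentation difference of 0.15 ± 0.23 (SE). Row NM_130947 stood alone in reading below both normoxic arrays at segmentation. It read 8.77 and 8.86 in hypoxic gastrulae, against 8.16 and 7.67 in normoxic gastrulae, but 8.36 in the hypoxic segmentation array, against 8.60 and 8.38 in the normoxic ones. The other 9 rows without a symbol differed by 0.58 to 1.38 in gastrulae and by 0.20 to 0.88 at segmentation. In all 9, as in 121 of all 123 members and 33.7% of all rows, the hypoxic segmentation array exceeded both normoxic arrays.

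Gene order was read from the zebrafish gene table of assembly GRCz12tu. Of the 104 placed members, 5 pairs lay within 10 protein-coding genes of each other on a chromosome, and ugt5a1 with ugt5a2 was the 1 pair of direct neighbours. The others were f10 with adprhl1, bcl9 with cfap58, stac3 with cldn10b, and dachd with gja5a. No background count was made for such pairs, and nothing is read from their number. Of 15 gene lists for pathways and cell types, the HIF pathway list, with 7 measured genes, held 1 member (insig2). The other 14, with 1 to 6 measured genes each, held 0. Members were 123 of 3055 NM_ rows, so nothing is read from 0 in lists of this size. The lists were not complete, and hspb9l and the muscle genes above were not on them. The same gap and stage window applied to rows with other identifiers found 2101 rows, for which no symbols were used. In 93.9% of these the hypoxic segmentation array also read above both normoxic arrays, against 98.4% of the members, so rows outside the set showed the same order.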

How the data were processed

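The values analysed are the authors' deposited log2 values for 7 arrays, summarised with RMA (Robust Multi-array Average, version not stated) per the submitters' processing notes. That the scale is log2 follows from the range of the values. The array design, background step and genome build are not given in the sources used here. Array number limits the precision, and 1 column, that of the second hypoxic segmentation sample, held no values and was not analysed here. Row identifiers were matched, without versions, to a RefSeq gene table of assembly GRCz12tu, and 2663 of 3055 NM_ rows had 1 symbol.

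The members, the 15 gene lists and the roles were chosen with earlier results of these data known. The gastrula hypoxia difference and the stage difference chose the members and were not tested. The segmentation hypoxia difference was fitted over all 37157 rows and 4 groups with dye as a covariate in limma 3.58.1 (R 4.3.3, lmFit and eBayes), two-sided, with Benjamini-Hochberg adjustment and a threshold of 0.05. The fit had 2 residual degrees of freedom and was tested on simulated data with independent noise. The simulated data held no dye, replicate or array spread effects, so that test does not cover these features of the arrays. The p-values rest on the spread between these arrays, whose samples the series' design text calls biological replicates.

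Genes named with values in every array are the 12 with the widest gap, the 8 with the smallest segmentation p, further members of shared families, and examples per role chosen after their values were seen. For the 6 with the lowest segmentation difference and the 4 highest and 4 lowest in level, some values or the name alone are given. Alternatives were a fit without dye, replicate blocks, other scalings, gaps and stage windows, no low rows, other variance priors, and leaving out each array but the single hypoxic segmentation one. As a pairing check, the replicate 1 minus 2 differences correlated across rows at -0.15 between hypoxic and normoxic gastrulae, which share the dye order, and at 0.54 between normoxic gastrulae and normoxic 8-somite embryos, whose dye order is opposite. Counts per chromosome, promoters and proteins were not analysed here. The result of 1 member is not reported here.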

Additional observations from a re-analysis of the deposited data

Results flagged for a closer look

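Row NM_130947, which has no matched symbol, differed in direction between the stages. Both hypoxic gastrula arrays (8.77 and 8.86) lay above both normoxic gastrula arrays (8.16 and 7.67), while the hypoxic segmentation array (8.36) lay below both normoxic segmentation arrays (8.60 and 8.38). The distance to the nearer normoxic segmentation array was -0.027 on the log2 scale, with 1 hypoxic array. The dye-adjusted segmentation difference was -0.10. Both were smaller in size than the SD of the normoxic segmentation arrays in this row (0.15). The difference between the stages was not tested.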

How the results depend on the processing

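No row passed an adjusted p of 0.05 in limma under any setting run except the fit without dye, which called 9 rows and 0 members, while 1714 to 4031 rows had an unadjusted p under 0.05. Of 123 members, 120 to 123 had a segmentation difference above 0 over the fits run (117 of 118 without the lowest 25% of rows), and the members' median ran from 0.39 to 0.75 when 1 array was left out. Some of these fits are not separate checks. Either replicate block, and leaving out segmentation normoxia replicate 2, give by construction the hypoxic segmentation array minus normoxic replicate 1. Leaving out gastrula normoxia replicate 1 or replicate 2 gives the same estimates. With a replicate block the median was 0.39, 121 members were above 0, 0 rows were called and 9 members, against 19, had an unadjusted p under 0.05 and read higher. A crossed replicate block, added after the data were seen, called 0 rows, with 121 members above 0 and 23 at that unadjusted p.

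The number of rows meeting the rule was 70 after median centring, 347 with a gap of 0.25, 23 with a gap of 1, 2233 over all rows whatever their identifier (added after the data were seen), and 151 to 317 when 1 gastrula array was left out (272 without normoxic replicate 1, 317 without hypoxic replicate 1, 185 without hypoxic replicate 2). Turned round, the rule found 163 rows lower in hypoxic gastrulae. Of 23 members followed singly, 3 changed sign. The difference of sema6a was -0.036 with either replicate block, -0.014 after quantile normalization, -0.0082 after median centring and -0.036 to 0.22 when 1 array was left out. That of sema3ga was -0.0086 after quantile normalization, and that of NM_130947 ran from -0.24 to 0.18 when 1 array was left out. The causes were not tested. A test on the segmentation arrays alone was not run, since with dye it leaves no residual degrees of freedom. The single hypoxic segmentation array limits every result at that stage.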
